A study of Homo sapiens with 6 samples.

Results

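The AP-1 and immediate early transcription factors were followed in HCT116SCs. These are stem-like cells of the human colorectal cancer line HCT116, taken by magnetic beads for CD44 and CD326 and grown as tumor spheres. The set holds 10 genes, picked by symbol from the 58735 genes of the expression table: FOS, FOSB, FOSL1, FOSL2, JUN, JUNB, JUND, ATF3, EGR1 and IER2. Cells were transfected with negative control siRNA (NC, n = 3 libraries) or with siRNA against PSCA (siPSCA, n = 3 libraries) in lipid complexes, and RNA was taken after 48 h. All 6 cultures received EGF and bFGF, each at 20 ng/mL, and B27 in serum-free medium, so the control cells also grew under growth factor stimulation. The genotype label is WT for NC and PSCA knockdown for siPSCA. The sources do not name which of the 3 PSCA siRNAs was sequenced, all libraries come from this cell line alone, and the titles of siPSCA 2 and siPSCA 3 carry a different line number although their other labels read HCT116.

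AP-1 is a pair of basic leucine zipper proteins that binds DNA, made of a Jun protein with another Jun protein or with a Fos protein. Fos proteins cannot pair with themselves, so the Jun genes set which Fos complexes can form. FOS, FOSB, EGR1, JUNB and IER2 are immediate early genes, switched on within minutes of a growth signal through ERK, serum response factor and its ETS partners, and their messages are short-lived. FOSL1, which encodes FRA-1, follows later and is known in colorectal cancer cells as a reader of sustained ERK activity. ATF3 is a related zipper factor of the stress response and EGR1 is a zinc finger protein.

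Values are given as FPKM, the reads of a gene divided by its length and by the size of the library. The recovered reads on genes ranged from 16099716 to 17302219 per library. The members had between 198 and 3411 reads in a library, so none was limited by low counts. PSCA itself had 4, 12 and 15 reads under NC and 9, 9 and 7 under siPSCA, too few to show the knockdown, and the groups rest on the labels. Of the sorting markers, CD44 had a mean FPKM of 82.6 in NC and 60.7 in siPSCA (log2 fold change -0.44, limma adjusted p = 0.00193, and -0.26 with the GC and length trend removed), and EPCAM, the gene of CD326, had 107 and 94.97 (limma adjusted p = 0.199). Of 8 listed markers of the sorted cells, VIL1 was at 0.041 FPKM or less in every library and was not tested. Of the 7 tested, 2 were higher in siPSCA, CDX2 (0.70) and KRT8 (0.22, but -0.03 with that trend removed), and CD44 and CDH1 (-0.60) were lower. Their part in the results was not tested. NC 3 stood apart from NC 1 and NC 2, and it was the lowest NC library for 9 of the 10 members. Across genes, which are not independent replicates, its difference from the other NC libraries went with GC content (Spearman rho -0.56), and so did the fold changes between the groups (0.66). Values without NC 3, or with the trend on GC content and length removed, are given beside the results where they differed most, and the part of GC content in them was not tested further. Of 9 markers of blood, endothelial and stromal cells, 8 stayed under 1 FPKM in every library and CD3E and CD68 had no read. Their summed FPKM, almost all from COL1A1, was 3.65 to 5.995 in NC and 6.28 to 6.86 in siPSCA, and its part in the results was not tested. In bulk RNA, fewer cells of a kind and less RNA per cell cannot be told apart.

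All 10 members passed the minimum of 1 FPKM on average, and 8 of them differed between siPSCA and NC at an adjusted p under 0.05 (limma, adjusted over all 13796 genes tested). FOSL1 and ATF3 rose, as did JUND, whose sign turned when the GC and length trend was removed. FOS, FOSB, FOSL2, JUNB and EGR1 fell, and JUN and IER2 did not pass. Under the same rule 50.7% of all genes tested were called, 26.6% higher and 24.2% lower in siPSCA, so calls were common throughout the table. The groups did not overlap for 9 of the members, against 64.5% of all genes tested. The median log2 fold change of the members was -0.16, against 0.01 over all genes tested. Without NC 3 the calls were again 3 higher and 5 lower, against 4014 and 3411 of all 13796 genes tested. With the GC and length trend removed they were 2 higher and 6 lower, against 2968 and 2541 of 13792. The median log2 fold change of the members was -0.32 and -0.61 in these fits, against 0.01 and 0.02 over all genes tested.

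In the NC libraries JUND, JUNB and EGR1 had the highest levels, with mean FPKM of 58.9, 55.4 and 52.1 and overlapping ranges. FOS followed at 25.6, clear of its neighbours on either side. FOSL1 at 18.3, JUN at 15.96, IER2 at 12.6 and FOSL2 at 10.9 came next, each overlapping the one before it from JUN on. ATF3 at 5.14 and FOSB at 3.73 were lowest, with ranges apart from each other and from FOSL2. In siPSCA the order was JUND, JUNB, FOSL1, EGR1, JUN, FOS, IER2, ATF3, FOSL2 and FOSB, and the ranges of neighbours did not overlap. FOSL1 thus moved from rank 5 to rank 3 and FOS from rank 4 to rank 6.

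FOS, the founding Fos protein and a classic ERK-responsive gene (ENSG00000170345, GRCh38 chromosome 14, 75278774 to 75282230, plus strand), had FPKM of 27.5, 26.2 and 23.1 under NC. Under siPSCA they were 16.3, 16.7 and 15.2, all below the lowest NC value. The means were 25.6 ± 2.26 and 16.1 ± 0.789 (SD, n = 3 each). On the log2 scale FOS differed by -0.64 (SE 0.08), with an adjusted p of 0.00184 in limma. FOS fell under each of the 13 alternative fits, by 0.58 to 0.83 on the log2 scale. The spread within siPSCA was smaller than that within NC, where NC 3 was lowest.

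FOSB, the closest relative of FOS (ENSG00000125740, chromosome 19, 45467995 to 45475179, plus strand), was the lowest of the set and fell as well. Its FPKM values were 3.62, 4.002 and 3.58 in NC and 2.11, 2.39 and 1.96 in siPSCA. No library of one group reached the other. The log2 fold change of -0.59 (SE 0.08, limma adjusted p = 0.00259) is on the scale of FPKM + 1 and understates a gene at this level. The mean in siPSCA was 0.576 times that in NC. With the GC and length trend removed the log2 fold change was -0.92.

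The starts of FOS and FOSB are shown because these related genes fell together and share promoter letters at like positions. Each window runs from 250 bases before to 50 bases after the RefSeq start (GRCh38.p14). Capitals mark the letters TGACG or its reverse complement CGTCA, which form one side of the cAMP response element bound by CREB and ATF proteins, and the TATA box letters TATAAA.
FOS, chr14:75278578-75278877, plus strand: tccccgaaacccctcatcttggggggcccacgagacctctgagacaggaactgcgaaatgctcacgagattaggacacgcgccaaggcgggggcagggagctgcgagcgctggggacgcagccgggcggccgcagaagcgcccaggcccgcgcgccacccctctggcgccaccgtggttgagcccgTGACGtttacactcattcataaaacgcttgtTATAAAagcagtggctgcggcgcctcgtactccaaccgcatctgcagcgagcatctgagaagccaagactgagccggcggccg
FOSB, chr19:45467746-45468045, plus strand: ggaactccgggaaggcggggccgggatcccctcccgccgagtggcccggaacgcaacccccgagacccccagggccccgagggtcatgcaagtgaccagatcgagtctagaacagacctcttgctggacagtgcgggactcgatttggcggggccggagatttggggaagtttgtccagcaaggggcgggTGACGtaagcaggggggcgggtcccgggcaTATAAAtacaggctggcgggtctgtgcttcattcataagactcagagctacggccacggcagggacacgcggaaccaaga
With bases before the start counted as negative, TGACG lay at -64 to -60 in FOS and at -60 to -56 in FOSB. TATAAA lay at -33 to -28 and at -30 to -25. These positions are not particular to the pair. FOSL2 held TGACG and EGR1 held CGTCA at -66 to -62, and JUNB held TATAAA at -31 to -26. FOSL1 had no promoter in the table. Of the other 9 members, 8 held TGACG on either strand, against 24.6% of all 35116 promoter windows of this length. All windows were not matched to these for GC content. It was 62% to 77% in the windows of the 8, and 48% and 46.3% in those of ATF3, which lacked the letters. TATAAA on either strand was found in 4 of the 9, against 11.5% of all windows. A member counted when any of its windows held the letters, and ATF3 did so only at -230 to -225. These are matches of letters and not measured sites.

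FOSL2, which encodes FRA-2 (ENSG00000075426, chromosome 2, 28392448 to 28417312, plus strand), had the largest fall of the set. Its FPKM was 11.2, 11.1 and 10.3 in NC and 5.26, 5.16 and 5.15 in siPSCA, so that the siPSCA values were close together and the NC mean was 2.09 times theirs. Its log2 fold change of -0.94 (SE 0.05, limma adjusted p = 0.000283) lay within -0.92 to -1.08 over the alternative fits. Its promoter window held a full AP-1 site, TGANTCA read as TGACTCA, from base 5 to base 11 after the start, which 7.71% of all windows hold in some form.

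FOSL1 moved against its relatives. FOSL1 (ENSG00000175592, chromosome 11, 65892049 to 65900573, minus strand) had FPKM of 18.4, 20.7 and 15.7 in NC and 34.3, 32.7 and 33.6 in siPSCA. Every siPSCA library lay above every NC library, with means of 18.3 ± 2.54 and 33.5 ± 0.795 (SD, n = 3 each). The log2 fold change was 0.85 (SE 0.10, 95% interval 0.61 to 1.09, adjusted p = 0.00167, limma). It was 0.75 without NC 3 and 0.45 with the GC and length trend removed, and it passed in each of the 13 alternative fits. Of the stretches of 50 bases in its transcripts, 2.91% also occur in the pseudogene FOSL1P1.

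FOS and FOSL1 can be compared within each library, where the size of the library cancels in the ratio of FPKM values. FPKM of FOS divided by FPKM of FOSL1 was 1.49, 1.26 and 1.47 under NC, with FOS the higher. Under siPSCA it was 0.476, 0.510 and 0.452, with FOSL1 the higher. On the log2(FPKM + 1) scale FOS minus FOSL1 was 0.47 ± 0.13 in NC and -1.02 ± 0.08 in siPSCA (SD, n = 3 each), a difference of -1.48 that separated all libraries. The exact permutation test gave p = 0.1 (2-sided), the smallest that 3 libraries against 3 allow. The difference ranged from -1.56 to -1.44 when single libraries were left out, and it was -1.27 with the GC and length trend removed.

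**Figure D1:**
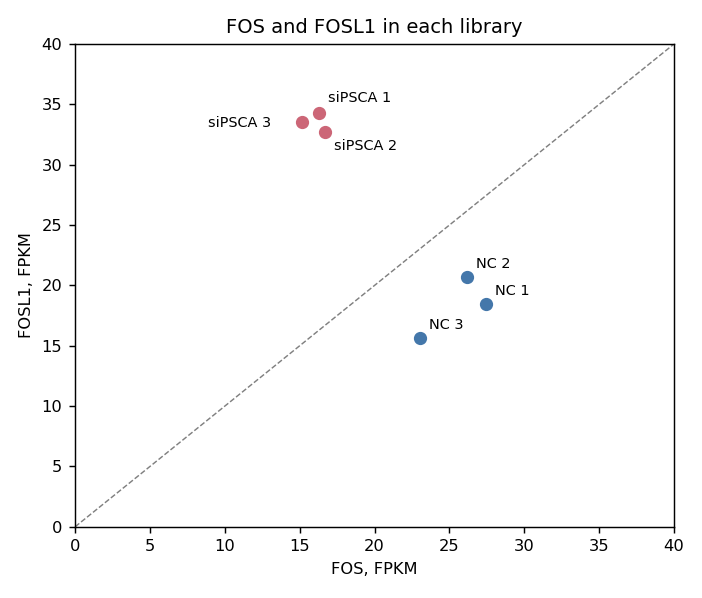
FPKM of FOS (x axis) against FPKM of FOSL1 (y axis) in each library, NC in blue and siPSCA in red, with a dashed line of equal levels. The NC libraries lie below the line at FOSL1 values of 15.7 to 20.7, and the siPSCA libraries lie above it at 32.7 to 34.3.

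Within the Fos family the makeup of the summed RNA differed between the groups. The sum of FPKM over FOS, FOSB, FOSL1 and FOSL2 was 60.7, 62.0 and 52.6 in NC and 58.0, 56.9 and 55.9 in siPSCA (exact permutation p = 0.7, 2-sided), with overlapping ranges. FOSL1 made up 31.2% ± 1.96 of this sum in NC and 58.9% ± 1.36 in siPSCA (SD, n = 3 each), a gain of 27.7 percentage points. FOS went from 43.7% to 28.2%, FOSL2 from 18.7% to 9.12% and FOSB from 6.41% to 3.78%. Each of these 4 shares separated the groups (exact permutation p = 0.1, 2-sided, the smallest possible). Without NC 3 the gain of FOSL1 was 26.98 percentage points. These shares are without correction for GC content, which is 60.04% for FOSL1 and 52.6% for FOS, and the log2 fold change of FOSL1 was 0.45 with the GC and length trend removed. They are shares of RNA per length and do not give protein.

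The Jun genes carry the partners of these Fos proteins. JUNB, a partner that is often described as weaker than JUN and as rapidly induced (ENSG00000171223, chromosome 19, 12791496 to 12793315, plus strand), had FPKM of 58.9, 60.7 and 46.5 in NC and 43.3, 39.6 and 37.2 in siPSCA. The groups did not overlap, and JUNB fell by 0.45 on the log2 scale (SE 0.11, limma adjusted p = 0.0189). The call rested on the libraries used, since without NC 1, NC 2, siPSCA 2 or siPSCA 3 the adjusted p (limma) was 0.0514, 0.0551, 0.0609 and 0.0619, and it was 0.0510 without the FPKM minimum. Without NC 3 the log2 fold change was -0.57, and with the GC and length trend removed -1.07, both past the threshold. The exons of HOOK2 on the other strand cover 14.2% of the exonic bases of JUNB, and whether counting used the strand is not given in the sources used here. HOOK2 had a mean FPKM of 13.9 in NC and 14.8 in siPSCA.

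JUND, the Jun gene that most cells express without induction (ENSG00000130522, chromosome 19, 18279760 to 18281622, minus strand), had the highest mean level of the set in both groups, although in NC 3 it lay below JUNB and EGR1. Its FPKM was 71.9, 64.8 and 40.1 in NC and 98.3, 103 and 96.9 in siPSCA. All siPSCA values were higher before the GC and length trend was removed, and NC 3 lay far below the other NC libraries. Its log2 fold change of 0.79 (SE 0.21, limma adjusted p = 0.0217) was 0.54 without NC 3 and passed there too (adjusted p = 0.000844, limma). JUND did not pass without siPSCA 1, siPSCA 2 or siPSCA 3 (adjusted p = 0.0649, 0.0678 and 0.0556, limma), nor without the FPKM minimum (0.0613). JUND has the highest GC content of the set, 69.7%, above 99.6% of the genes tested, and with the GC and length trend removed its log2 fold change was -0.09 (adjusted p = 0.172, limma).

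JUN, the partner that carries most Fos complexes in textbook accounts (ENSG00000177606, chromosome 1, 58780788 to 58784327, minus strand), had FPKM of 16.4, 17.8 and 13.7 in NC and 19.5, 19.4 and 18.1 in siPSCA. These groups did not overlap, but the log2 fold change of 0.25 (95% interval 0.01 to 0.48) did not pass after adjustment (adjusted p = 0.0758, limma). It passed without NC 2 (0.32, adjusted p = 0.0410, limma) and with limma-voom on recovered reads (0.29, adjusted p = 0.0374). It was 0.15 without NC 3 (adjusted p = 0.0660, limma) and -0.08 with the GC and length trend removed.

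The FPKM of JUN, JUNB and JUND summed to 147, 143 and 100 in NC and to 161, 162 and 152 in siPSCA. These ranges did not overlap (exact permutation p = 0.1, 2-sided, the smallest possible), and NC 3 had the lowest sum. Within the Jun family, JUND held 48.8%, 45.2% and 39.96% of the summed FPKM in NC and 61.0%, 63.6% and 63.7% in siPSCA. JUNB held 40.03%, 42.4% and 46.4% in NC and 26.9%, 24.4% and 24.4% in siPSCA. The shares of JUN, 12.4% in NC and 11.997% in siPSCA in the mean, overlapped (exact permutation p = 0.7, 2-sided). The shares of JUNB and JUND separated the groups (exact permutation p = 0.1, 2-sided, the smallest possible). JUND has more GC than JUNB, 69.7% against 64.9%, and these shares and the sum are without correction for GC content.

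**Figure D2:**
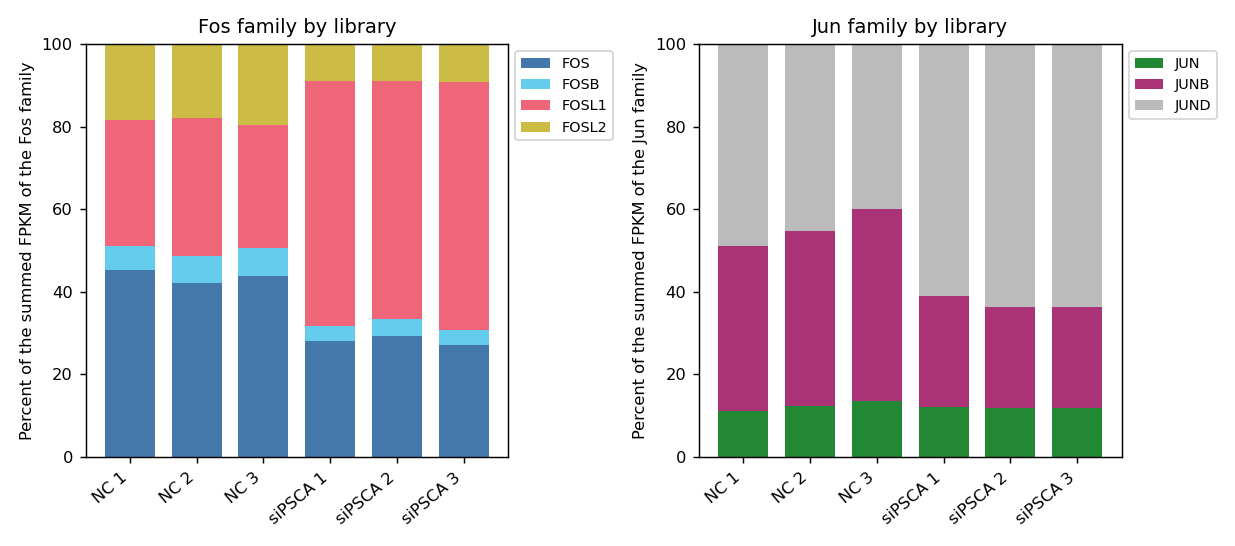
Makeup of the Fos family (left) and of the Jun family (right) in each library, as percent of the summed FPKM of the family (y axis). FOSL1 takes 29.8% to 33.4% of the Fos sum in NC and 57.4% to 60.1% in siPSCA, and JUND takes 39.96% to 48.8% of the Jun sum in NC and 61.0% to 63.7% in siPSCA, although with the GC and length trend removed its own log2 fold change was -0.09.

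The promoter windows of JUNB and JUND are set side by side because these Jun genes, both on chromosome 19 with a main transcript of 1 exon, differed in their log2 fold changes, JUNB at -0.45 and JUND at 0.79 (-0.09 with the GC and length trend removed). Capitals mark TGACG or CGTCA, the full cAMP response element TGACGTCA that contains both, and TATAAA.
JUNB, chr19:12791236-12791535, plus strand: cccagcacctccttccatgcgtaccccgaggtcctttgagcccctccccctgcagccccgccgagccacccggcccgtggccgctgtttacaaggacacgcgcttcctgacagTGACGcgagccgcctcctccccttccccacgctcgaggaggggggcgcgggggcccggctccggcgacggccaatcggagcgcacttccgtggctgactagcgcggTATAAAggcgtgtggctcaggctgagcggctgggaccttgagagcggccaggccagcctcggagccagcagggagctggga
JUND, chr19:18281573-18281872, minus strand: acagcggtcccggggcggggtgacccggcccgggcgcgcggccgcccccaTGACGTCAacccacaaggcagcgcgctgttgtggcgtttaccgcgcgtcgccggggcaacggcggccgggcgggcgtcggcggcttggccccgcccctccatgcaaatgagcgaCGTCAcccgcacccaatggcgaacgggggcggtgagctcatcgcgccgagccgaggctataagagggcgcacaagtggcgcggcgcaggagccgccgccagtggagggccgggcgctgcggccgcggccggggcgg
JUNB held TGACG at -137 to -133 and TATAAA at -31 to -26. JUND held the full element, which 1.85% of all windows contain, at -200 to -193 and CGTCA at -86 to -82. TATAAA was not among its letters, but TATAAG, which differs in the last letter, was, and such near matches were not counted. TGACATCA, a variant known from the JUN promoter and searched on both strands, lay at -67 to -60 in JUN and at -123 to -116 in 1 of the 2 windows of ATF3. This variant is present in 2.61% of all windows.

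EGR1, the zinc finger factor that is a standard readout of ERK and serum response factor activity (ENSG00000120738, chromosome 5, 138465490 to 138469315, plus strand), fell most after FOSL2. Its FPKM was 57.5, 56.8 and 41.9 in NC and 28.3, 29.7 and 29.1 in siPSCA. The lowest NC library, NC 3, was still well above every siPSCA library. The means were 52.1 ± 8.81 and 29.03 ± 0.701 (SD, n = 3 each). EGR1 fell by 0.81 on the log2 scale (SE 0.12, limma adjusted p = 0.00368). It was -0.95 without NC 3 and -1.08 with the GC and length trend removed.

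The EGR1 window is shown because, alone among the members with a window, it held CArG boxes, the elements that serum response factor binds. FOSL1 had no window and was not searched. The search covered only 250 bases before and 50 bases after each start, so boxes further upstream would be missed in any member. Capitals mark the CArG boxes, TGACG or CGTCA, and GCGNGGGCG, the letters bound by EGR proteins, searched on both strands.
EGR1, chr5:138465229-138465528, plus strand: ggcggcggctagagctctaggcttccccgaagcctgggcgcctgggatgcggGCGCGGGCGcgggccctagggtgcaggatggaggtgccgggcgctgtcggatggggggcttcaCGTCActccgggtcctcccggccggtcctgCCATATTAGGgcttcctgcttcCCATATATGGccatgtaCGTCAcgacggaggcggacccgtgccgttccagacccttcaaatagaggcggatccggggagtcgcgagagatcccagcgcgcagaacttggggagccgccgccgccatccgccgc
The CArG boxes lay at -105 to -96 and at -83 to -74. CArG boxes occur in 1.29% of all windows, and the EGR letters, at -198 to -190 here, in 9.43%.

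ATF3, induced by amino acid shortage, misfolded protein and DNA damage (ENSG00000162772, chromosome 1, 212565334 to 212620777, plus strand), rose. Its FPKM was 4.82, 4.97 and 5.62 in NC and 8.50, 7.65 and 7.24 in siPSCA. NC 3 was here the highest NC library, and no siPSCA library came down to it. Its log2 fold change was 0.52 (SE 0.08, limma adjusted p = 0.00377). ATF3 has the lowest GC content of the set, 46.7%, and its log2 fold change was also 0.52 with the GC and length trend removed.

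IER2, an immediate early gene whose product enters the nucleus (ENSG00000160888, chromosome 19, 13150415 to 13154908, plus strand), had FPKM of 14.7, 14.0 and 8.96 in NC and 14.5, 13.9 and 12.3 in siPSCA. The groups overlapped, with a log2 fold change of 0.13 (95% interval -0.31 to 0.57, adjusted p = 0.570, limma). NC 3 decided its sign, since the value was -0.08 without it. With the GC and length trend removed it was -0.39 and passed (adjusted p = 0.00897, limma). The antisense gene AC011446.2 covers 30.8% of the exonic bases of IER2 and is listed at 0 in every library.

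**Figure D3:**
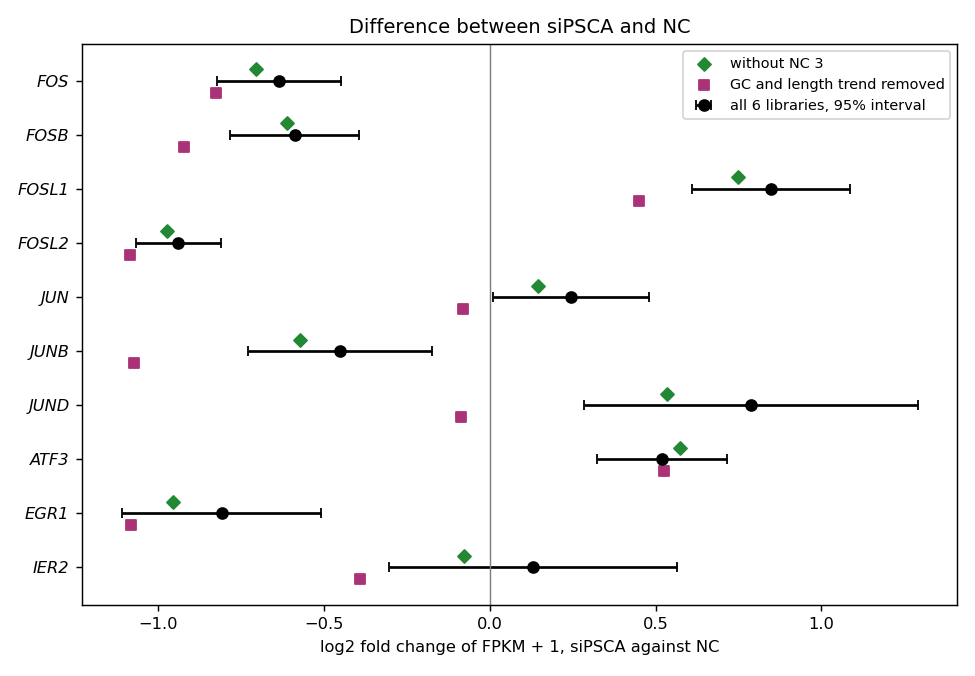
Log2 fold change of FPKM + 1 between siPSCA and NC (x axis) for each gene, from all 6 libraries with its 95% interval (black), without NC 3 (green) and with the trend on GC content and length removed (purple). FOS, FOSB, FOSL2, JUNB and EGR1 lie left of 0 and FOSL1 and ATF3 right of 0 in all of these fits, whereas JUN, JUND and IER2 lie on both sides.

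The messages of immediate early genes are often short-lived because of AU-rich elements, so the letters ATTTA were counted in the 3′ untranslated part of each member's transcript with the longest coding sequence. FOS had 5 in 806 bases, or 6.20 per kilobase, a density above 94.4% of the 11040 tested protein-coding genes. JUNB had 4 per kilobase, above 84.2%. FOSL1, with 1.502 per kilobase, lay close to the median of 1.51, as did JUND with 1.47 and FOSB with 1.39. EGR1 had 0.810 per kilobase and IER2 had none. FOSL2 had 1.85 per kilobase, JUN 2.33 and ATF3 2.45. Among the members that fell, densities ran from 0.810 for EGR1 to 6.20 for FOS. The part of these letters in the changes was not tested.

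Other immediate early genes moved in both directions. Of 31 listed, 28 were tested, and 10 rose, 8 fell and 10 did not pass, with a median log2 fold change of 0.03. The called genes with the largest changes were KLF2 (1.12), a zinc finger factor, BTG2 (0.75), an antiproliferative gene, ARC (0.74, but -0.03 with the GC and length trend removed), a synaptic gene, and NFIL3 (-0.73), a zipper repressor. With that trend removed KLF2 was at 0.47. The list then had 6 higher and 11 lower, against 2968 and 2541 of 13792 genes tested. Without siPSCA 1, and likewise without siPSCA 2, 10 of the list passed. Calls over all genes tested fell too, from 7001 to 4627 and 4734.

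The factors that act on immediate early promoters were also split, with 6 of 15 tested higher, 6 lower and 3 not called (16 listed, median log2 fold change 0.08). Among all genes tested 50.7% were called. RPS6KA4, which encodes the kinase MSK2, rose by 1.18 on the log2 scale, SRF, the serum response factor, by 0.75, and its coactivator MRTFA by 0.71. ELK3, an ETS partner of serum response factor that can repress, fell by 0.98. With the GC and length trend removed these log2 fold changes were 0.51, 0.25, 0.25 and -0.81, in the same directions.

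Among 12 further AP-1 and CREB zipper factors, 10 were tested, and 2 rose, 3 fell and 5 did not pass (median -0.02). The share called over all genes tested was 50.7%. MAFK (0.89) and MAFG (0.56), small Maf proteins, rose, and ATF1 (-0.56) and CREB1 (-0.39), which bind the cAMP response element, fell. With the GC and length trend removed they were at 0.29, 0.24, -0.27 and -0.01. Over all 48 genes that the deposited table assigns to the bZIP family, 36 were tested, with 11 higher, 14 lower and a median log2 fold change of -0.03. That family includes 8 of the 10 members.

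Genes described as AP-1 targets had 10 calls among 12 tested of 18 listed, 5 in each direction (median log2 fold change 0.12). For all genes tested the share called was 50.7%. PLAUR, the urokinase receptor, had the largest change, with a mean FPKM of 24.7 ± 0.970 in NC and 10.1 ± 0.265 in siPSCA (SD, n = 3 each, log2 fold change -1.21, adjusted p = 0.000125, limma). VIM (-0.64), encoding vimentin, and HBEGF (-0.58), an EGF receptor ligand, fell, and LIF (0.60), a cytokine, rose (0.26 with the GC and length trend removed). The count was 6, 5 and 6 without siPSCA 1, siPSCA 2 and siPSCA 3, where calls over all genes tested went from 7001 to 4627, 4734 and 5511. With that trend removed 2 of the list were higher and 6 lower, against 2968 and 2541 of 13792 genes tested.

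All 8 AU-rich element binding proteins were tested, and 4 rose and 2 fell (median log2 fold change 0.15), with 50.7% called over all genes tested. KHSRP (0.65) and ZFP36L2 (0.52), which promote decay of such messages, rose, and TIA1 (-0.39) and TIAL1 (-0.35), which hold back their translation, fell. ZFP36 (0.30) and ELAVL1 (0.22) also rose, and were at 0.004 and 0.31 with the GC and length trend removed. Without siPSCA 1, 3 passed, and calls over all genes tested went from 7001 to 4627. With the GC and length trend removed 3 were higher and none lower, against 2968 and 2541 of 13792 genes tested. KHSRP was then at 0.23, ZFP36L2 at 0.27, TIA1 at -0.07 and TIAL1 at -0.04.

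The protein-coding genes whose values over the 6 libraries were most like those of FOS were WDR54, AHNAK2 and C14orf28 (Pearson correlation of log2(FPKM + 1) 0.996 for each). For FOSL1 they were CHERP, AP5S1 and NDUFB10 (0.9998, 0.9994 and 0.9990). These correlations rest on the contrast between the groups, and 426 genes had a correlation over 0.95 with FOS and 1786 with FOSL1.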

How the data were processed

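The authors deposited 1 table of FPKM values, with gene length, position and family, for 6 paired-end NEBNext Ultra libraries, and GRCh38 is the build in the submitters' processing notes. The aligner, counter and strand setting are not given in the sources used here. All 58735 gene positions equal those in GENCODE release 29. FPKM times length gave whole reads for 100% of values (within 0.02 reads).

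limma 3.58.1 in R 4.3.3 (lmFit, eBayes with trend) was fitted to log2(FPKM + 1) with group as the only term, for the 13796 genes whose FPKM averaged 1 or more. PSCA lay below it and is given as reads. P-values were 2-sided and adjusted by Benjamini-Hochberg over all genes tested, and calls needed an adjusted p under 0.05. The methods name no test for genes. Nothing states that the libraries came from separate cultures, so p-values measure the spread between these libraries, which may be technical. Single values were tested by exact permutation (scipy 1.17.1), which cannot fall below 0.1. The main fit was also run on simulated reads with few changed genes and no GC trend. These data differ in both, so that run does not bear on the calls here.

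GC content was that of each gene's longest GENCODE transcript, and its trend (natural splines with 4 degrees of freedom, with length) was removed from each library's deviation from the gene mean. Promoter windows are from RefSeq, GRCh38.p14, for 9 of 10 members, all but FOSL1. The named genes were the members, up to 4 called genes per list with the largest change, and the 3 most correlated with FOS and with FOSL1. ZFP36 and ELAVL1 were named after their values were seen. Members and lists were chosen with earlier results of these data known. Alternatives were a pseudocount of 0.1, no minimum, TPM, limma-voom on recovered reads, upper-quartile scaling, each library left out, the replicate block and the GC correction.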

Additional observations from a re-analysis of the deposited data

How the results depend on the processing

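Of the log2 fold changes, those of FOS, FOSB, FOSL1, FOSL2, ATF3 and EGR1 kept their direction and their call in all 13 alternative fits. Taking out the GC and length trend turned JUN to -0.080, JUND to -0.088 and IER2 to -0.39, moved the FOS minus FOSL1 difference to -1.27 and left 3 AU-rich element binding proteins called. Without the FPKM minimum JUNB (-0.45) and JUND (0.79) did not pass (34391 genes tested), and with limma-voom on recovered reads JUN (0.29) passed. With single libraries left out, JUN ranged from 0.15 to 0.32, JUNB from -0.57 to -0.38, JUND from 0.54 to 0.95 and IER2 from -0.078 (without NC 3) to 0.25. The number of all genes called then ranged from 4627 (without siPSCA 1) to 7425 (without NC 3), the members called from 6 to 8, the immediate early genes from 10 to 20, the AP-1 targets from 5 to 10 and the AU-rich element binding proteins from 3 to 6. The cause was not tested.

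The replicate numbers were not taken to pair the libraries, since the correlations of same-numbered deviations were 0.0955, 0.0132 and 0.134, and libraries numbered 2 did not correlate best with each other. With the replicate block JUN passed at 0.25 (adjusted p = 0.0437, limma), the other members kept their calls, and 6725 genes were called in all. None of the scalings moved the median of all genes by over 0.1 on the log2 scale. With 3 libraries a group, single values cannot reach p under 0.1 by permutation. The correction for GC content removes any difference between the groups that follows GC content, so condition and library preparation cannot be told apart in it.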
